A study of Mus musculus with 6 samples.

Results

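The 3' regulatory region (3'RR) of the mouse immunoglobulin heavy chain locus (Igh) was followed in its contacts with itself, with the sequence on its 3' side, with the constant region genes and with the stretch that holds the intronic enhancer and the D and J segments. The members were 232 of the 12656 pairs of a forward and a reverse primer on Igh. They were taken by position alone: 1 fragment of a pair had its midpoint in the 3'RR, covered on mm9 by 8 HindIII fragments at chr12:114434637-114480873, and the other lay between 114339456 and 114691293. Of these pairs, 64 joined the 3'RR to 16 fragments of the 3' flank (114339456 to 114420752), 16 joined 2 fragments of the 3'RR, 100 joined it to 25 fragments of the constant region (114486613 to 114656272) and 52 to 13 fragments of the D-J region (114656273 to 114691293). The edges of these regions and the place of the intronic enhancer were set from approximate textbook positions, so a fragment next to an edge may belong to the neighbouring region.

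The assay was 5C, in which a forward and a reverse primer are joined where they anneal next to each other on religated HindIII ends, and a count is the number of read pairs found for such a primer pair. A forward fragment could be read only against reverse fragments. The 3 mouse cell types compared had 2 biological replicates each: pro-B cells from the bone marrow of Rag2-deficient animals, expanded in culture with IL7; mouse embryonic fibroblasts (MEF) taken from culture; and CD43-negative resting B cells, isolated from spleen on magnetic beads without culture. The labels give no strain or age and name no deficiency for the other cells, so Rag2 genotype, tissue and culture went together with cell type and cannot be told apart. The bases of these fragments were not used here, and no sequence is shown.

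The 3'RR is a group of B-lineage enhancers downstream of the last constant gene, followed by a row of sites for the insulator protein CTCF. It drives Igh transcription in mature B cells and is needed for class switch recombination, in which one constant gene replaces another next to the expressed variable exon. The intronic enhancer lies at the far end of the constant genes, between Ighm and the J segments, and loops between both enhancers are known from B cells. Rag2 is part of the recombinase that joins V, D and J segments. Without it the alleles of pro-B cells stay unjoined, while mature B cells carry joined alleles from which DNA between the joined ends has been cut out. In the RefSeq gene order (GRCm38.p6), Crip1, Tedc1 and Tmem121 lie on the 3' side of the locus, and the constant genes follow from the 3'RR onwards as Igha, Ighe, Ighg2c, Ighg2b, Ighg1, Ighg3, Ighd and Ighm. Genes were not placed on single fragments, since the files use another build.

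The libraries held 20580457 to 24191175 valid read pairs. The members took 13.3% and 18.8% of the Igh reads in pro-B replicates 1 and 2, 18.7% and 12.9% for MEF, and 7.20% and 6.72% for resting B. In pro-B replicate 2, 9 member pairs had 0 reads, against 0 or 1 in the other libraries. It also had the most Igh pairs at 0 (1641, against 376 to 622). A count of 0 allows up to 3 reads of a library. Levels below are counts scaled by 1e6 (CPM) over the TMM-scaled library, folds are log2, errors are SE with n = 2 libraries per group, and a fold passed where its adjusted p was under 0.05 (edgeR quasi-likelihood with Benjamini-Hochberg over all features of that kind). Another library size changes the scaling of every fold in a comparison. With reads of the gene desert on chromosome 5, a control stretch read with the same kind of primers, the log2 shift between the group means of the library sizes was 0.18 (pro-B over MEF), 0.52 (resting B over MEF) and 0.35 (resting B over pro-B); with total Igh reads it was -0.03, 0.25 and 0.28. The fitted fold of a single sum could move by more or less than that: within the 3'RR, pro-B over MEF went from -0.29 to 0.15 with gene desert reads. Gene desert reads as library size are reads within the gene desert. The gene desert reads of an Igh fragment are other reads, those that join it to the gene desert on chromosome 5. These made up 0.55% of valid pairs for pro-B replicate 1 and 2.02% to 3.41% in the other libraries.

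The fragments of the 3'RR did not share these contacts evenly. The 4 fragments nearest the constant genes (REV 27, FOR 28, REV 29 and FOR 31, 114459545 to 114480873) held 91.6% to 98% of its reads with the constant region and 87.2% to 96.9% of those with the D-J region in all 6 libraries. With the 3' flank they held 36.1% and 40.3% for pro-B, 48.6% and 54.5% for MEF, and 68.4% and 69.1% for resting B, and these 3 ranges did not overlap. REV 22, the outermost fragment (114434637 to 114441221), held 30.7% to 38.7% of the reads with the flank in pro-B cells and MEF and 19.3% and 20.4% in resting B cells. Primers differ in strength, so a share compares fragments only within the same primers.

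Of the 4 sums of the 3'RR with a region, 2 passed as higher and 0 as lower in pro-B cells over MEF, those with the constant and D-J regions, where 9.09% and 0% of the 55 region pairs of the locus passed. In resting B cells over MEF, 3 were higher and 1, within the 3'RR, was lower, against 32.7% and 16.4% of region pairs. In resting B over pro-B cells 0 were higher and 1, again within the 3'RR, was lower, against 20% and 21.8%.

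The D-J sum was 2.30 ± 0.28 higher in pro-B and 2.21 ± 0.27 higher in resting B cells than in MEF on the log2 scale (edgeR quasi-likelihood, adjusted p = 0.000886 and 0.000393), and the first of these did not pass without MEF replicate 2 (2.13; adjusted p = 0.107) or with gene desert reads as library size (2.44; adjusted p = 0.0562). The question was which fragments carry the contact between both ends of the constant genes. On the D-J side, the 7 fragments from FOR 76 to FOR 82 (114656273 to 114667886), which include the fragment REV 81 at the approximate position of the intronic enhancer, were compared with the 6 fragments from REV 83 to FOR 91 (114667887 to 114691293), on the side of the D segments. FOR 76, REV 77 and FOR 78 are the first 3 fragments past the approximate edge with the constant region, and their assignment to the D-J region is uncertain. This split was made after the values were seen. The enhancer side summed to 3120 and 2092 CPM with the 3'RR for pro-B, 331 and 300.2 CPM for MEF, and 2864 and 3563 CPM for resting B. Both B cell types were above both MEF libraries and overlapped each other. The D side summed to 1504 and 1189 CPM for pro-B, 524 and 450.4 CPM for MEF, and 464 and 547 CPM for resting B. Here pro-B cells alone were high, and resting B cells overlapped MEF. The enhancer side thus held 67.5% and 63.8% of the D-J reads of the 3'RR for pro-B, 38.7% and 39.999% for MEF, and 86.1% and 86.7% for resting B.

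**Figure D1:**
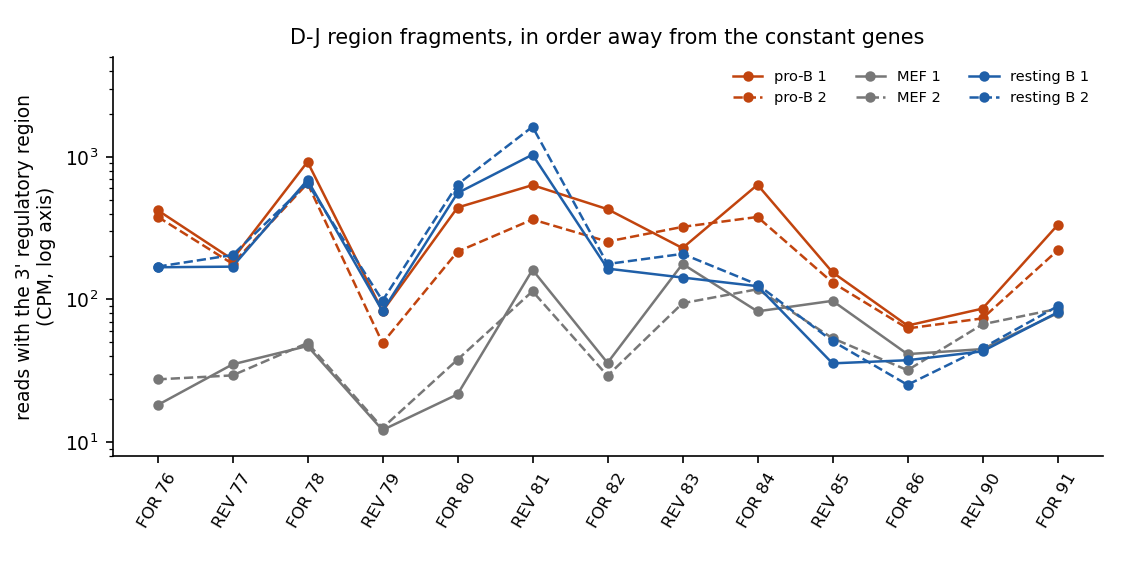
Reads of each D-J region fragment summed over its pairs with the 3'RR, as CPM on a log axis, by library (solid lines, replicate 1; dashed lines, replicate 2), in order of position from the constant genes towards the D segments. FOR 78 sits at 650.2 to 921 CPM in both B cell types and at 47.2 and 49.5 CPM in MEF, while FOR 84 sits at 379 and 636 CPM in pro-B cells and at 82.6 to 127 CPM in the other 4 libraries.

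On the enhancer side, 6 of the 7 fragments rose in pro-B cells over MEF and 7 of 7 in resting B cells over MEF. On the D side 2 of 6 rose in pro-B cells over MEF (FOR 84 by 2.34 ± 0.36 and FOR 91 by 1.73 ± 0.29; edgeR quasi-likelihood, adjusted p = 0.0325 and 0.0435), and 0 of 6 passed in resting B cells over MEF, where the folds ran from -0.80 to 0.37. Among all 2240 sums of an Igh fragment with a region, 1.38% passed as higher in the first comparison and 19.2% in the second. Without MEF replicate 1 or either resting B library, no D-J fragment passed in either comparison, and without MEF replicate 2 none passed in pro-B cells over MEF. FOR 78 (114659959 to 114662158) gave 921 and 650.2 CPM for pro-B, 47.2 and 49.5 CPM for MEF, and 688 and 651 CPM for resting B. Its folds over MEF were 4.02 ± 0.33 in pro-B and 3.79 ± 0.33 in resting B cells (edgeR quasi-likelihood, adjusted p = 0.00625 and 0.00429). The B cell types did not differ past the threshold for it (-0.23 ± 0.29; edgeR quasi-likelihood, adjusted p = 0.553).

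Towards the constant genes, FOR 76 (114656273 to 114658750) gave 423 and 380.3 CPM for pro-B, 18.2 and 27.5 CPM for MEF, and 168 and 169.8 CPM for resting B. All 3 groups stood apart for this fragment, with resting B cells between the others, 2.88 ± 0.32 over MEF and -1.25 ± 0.30 against pro-B cells (edgeR quasi-likelihood, adjusted p = 0.00429 and 0.0182). REV 81, at the enhancer, gave 633 and 363 CPM for pro-B, 161 and 114 CPM for MEF, and 1034 and 1623 CPM for resting B. Here resting B cells were highest, 3.27 ± 0.44 over MEF and 1.42 ± 0.41 over pro-B cells (edgeR quasi-likelihood, adjusted p = 0.00483 and 0.0351), and its pro-B over MEF fold of 1.86 ± 0.42 was the one of the 7 that did not pass (adjusted p = 0.0956). FOR 80, its neighbour on the constant side (114664064 to 114664823), had a fold of 4.33 ± 0.49 in resting B cells over MEF and 3.46 ± 0.47 in pro-B cells over MEF (edgeR quasi-likelihood, adjusted p = 0.00429 and 0.025).

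Between the B cell types, 5 D-J fragments were lower in resting B cells and 1, REV 81, was higher, against 17.8% and 18.2% of all fragment-by-region sums. Without resting B replicate 1 or 2, 0 of the 5 passed. Besides FOR 76, the lower ones were 4 of the 6 on the D side. FOR 84 (114670120 to 114672758) gave 636 and 379 CPM for pro-B, 82.6 and 118 CPM for MEF, and 124 and 127 CPM for resting B, a fold of -2.01 ± 0.36 against pro-B cells (edgeR quasi-likelihood, adjusted p = 0.00759). REV 85, FOR 86 and FOR 91 had folds of -1.72, -1.03 and -1.69, and REV 83 and REV 90 of -0.65 and -0.85 did not pass. As a measure outside these contacts, reads joining the same 6 fragments to the gene desert showed folds of -0.62 to 1.31 in resting B over pro-B cells, and 0 of the 13 D-J fragments passed there. With gene desert reads as library size, 0 of the 5 passed, among them FOR 84 at -1.63 and FOR 91 at -1.33 (edgeR quasi-likelihood, adjusted p = 0.121 and 0.24).

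On the 3'RR side, REV 27 (114459545 to 114465908) was higher with the D-J region in both B cell types than in MEF. It gave 3135 and 1981 CPM for pro-B, 236 and 281 CPM for MEF, and 1574 and 1660 CPM for resting B. That was 67.8% and 60.4% of the 3'RR sum for pro-B, 27.6% and 37.4% for MEF, and 47.3% and 40.4% for resting B. Its pro-B over MEF fold of 3.31 ± 0.37 was the single one of 32 sums of a 3'RR fragment with a region to pass in that comparison (edgeR quasi-likelihood, adjusted p = 0.0114), where 1.38% of all 2240 fragment-by-region sums passed as higher and 0.0446% as lower. Without pro-B replicate 1 or 2 the number rose, but the share over all sums was not counted there. Without any other single library none passed. In resting B cells over MEF, 5 of the 8 fragments rose with the D-J region: REV 27 by 2.65 ± 0.36, FOR 31 by 2.27 ± 0.41, FOR 28 by 1.96 ± 0.40, REV 29 by 1.90 ± 0.36 and FOR 25 by 1.73 ± 0.43 (edgeR quasi-likelihood, adjusted p = 0.00486 to 0.0239). The other 3, REV 22, FOR 23 and REV 24, lie at the outer end and had folds of 0.65, 0.61 and -0.11.

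The primer pair with the most reads between the 3'RR and the D-J region joined FOR 78 to REV 27, 198 kb apart. It held 15907 and 14925 reads for pro-B, 620 and 1137 for MEF, and 14832 and 12699 for resting B. Both B cell types had at least 10 times the reads of the higher MEF library. The fold was 3.96 ± 0.41 in resting B cells over MEF and passed (edgeR quasi-likelihood, adjusted p = 0.0383); in pro-B cells over MEF it was 4.31 ± 0.42 and did not (adjusted p = 0.0923). FOR 31 with REV 81, the enhancer fragment, held 3130 and 4299 reads for pro-B, 814 and 1124 for MEF, and 11975 and 18423 for resting B. This pair rose over both other cell types, by 3.93 ± 0.44 over MEF and 1.91 ± 0.40 over pro-B cells (edgeR quasi-likelihood, adjusted p = 0.0383 and 0.037). In contrast, FOR 84 with REV 27 held 10545 and 7445 reads for pro-B, 952 and 2227 for MEF, and 1518 and 1551 for resting B. Against pro-B cells it fell by 2.76 on the log2 scale in resting B cells (SE 0.46; edgeR quasi-likelihood, adjusted p = 0.0275), and FOR 28 with REV 85 fell by 2.09 (SE 0.42, adjusted p = 0.0353; with gene desert reads as library size it did not pass).

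In the constant region, the fragments that passed in each comparison lay at different positions. The region is described in 3 stretches, again chosen after the values were seen. The 6 fragments nearest the D-J region (FOR 68 to REV 75, 114638362 to 114656272) gave 2450 and 2966 CPM for pro-B, 517 and 419 CPM for MEF, and 2803 and 2889 CPM for resting B. Both B cell types were high, and 5 of 6 fragments passed in pro-B and 6 of 6 in resting B cells over MEF, with 0 of 6 between the B cell types. Of all fragment-by-region sums, 1.38% passed as higher in pro-B and 19.2% in resting B cells over MEF, and the stretches were chosen on these values. FOR 68 gave 769 and 869 CPM for pro-B, 74.3 and 102 CPM for MEF, and 482 and 479 CPM for resting B (3.22 ± 0.31 and 2.45 ± 0.30 over MEF; edgeR quasi-likelihood, adjusted p = 0.00908 and 0.00474). REV 75 gave 827 and 883 CPM, 126 and 87.8 CPM, and 680.5 and 715 CPM in the same order (3.00 ± 0.32 and 2.71 ± 0.32; edgeR quasi-likelihood, adjusted p = 0.00908 and 0.00429). FOR 71 did not pass in pro-B cells over MEF (1.05 ± 0.65), and its pro-B libraries were far apart at 77.6 and 249 CPM.

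At the other end, the 7 fragments nearest the 3'RR (REV 33 to REV 39, 114486613 to 114522181) had 0 calls in pro-B cells over MEF and a median fold of -0.05. Their sums were 20567 and 6576 CPM for pro-B, 5049 and 4437 CPM for MEF, and 12048 and 12308 CPM for resting B. Both pro-B sums thus lay above both MEF sums, although only 2 of the 7 fragments, REV 33 and REV 39, had a fold above 0 in that comparison. REV 33 alone gave 19026 and 4815 CPM for pro-B and 3225 and 2534 CPM for MEF. That rise, 2.05 ± 0.64 on the log2 scale, did not pass (edgeR quasi-likelihood, adjusted p = 0.155). In resting B cells 4 of 7 passed over MEF, and 5 passed as higher and 1 as lower against pro-B cells, where 19.2% of all fragment-by-region sums passed as higher over MEF and 18.2% and 17.8% as higher and lower over pro-B cells. FOR 34 (114491123 to 114493851) gave 210.2 and 259 CPM for pro-B, 262 and 224 CPM for MEF, and 1267 and 1199 CPM for resting B. Pro-B cells and MEF overlapped, and resting B cells lay above both, by 2.34 ± 0.30 over MEF and 2.39 ± 0.30 over pro-B cells (edgeR quasi-likelihood, adjusted p = 0.00476 and 0.00332). REV 35, REV 37 and FOR 38 were also highest in resting B cells, with folds of 1.99, 2.06 and 1.84 over pro-B cells (edgeR quasi-likelihood, adjusted p = 0.00487, 0.00519 and 0.0059). Gene desert reads of REV 35 rose as well, by 1.73 ± 0.50 in resting B over pro-B cells (edgeR quasi-likelihood, adjusted p = 0.0418), and their part in its result was not tested. Those of FOR 34, REV 37 and FOR 38 had folds of 0.19, 0.93 and -1.13, none of them past the threshold.

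Among the 12 middle fragments, REV 44 and FOR 46 (114539129 to 114557959) were the 2 that passed in pro-B cells over MEF. REV 44 gave 2798 and 3131 CPM for pro-B, 637 and 514 CPM for MEF, and 1063 and 1184 CPM for resting B. FOR 46 gave 434 and 407 CPM, 66.5 and 52.9 CPM, and 139 and 159 CPM in the same order. Both were highest in pro-B cells with resting B cells between. Their folds in pro-B cells over MEF were 2.36 ± 0.32 and 2.82 ± 0.29, and in resting B against pro-B cells -1.40 ± 0.31 and -1.50 ± 0.27 (edgeR quasi-likelihood, adjusted p = 0.0247, 0.00908, 0.0144 and 0.00809). The last 2 did not pass with gene desert reads as library size, at -1.17 and -1.22. Their gene desert reads had log2 folds of 0.19 and -0.08 in resting B over pro-B cells. The other 10 middle fragments had 0 calls in pro-B cells over MEF, and 7 of them rose in resting B cells over MEF, where 19.2% of all fragment-by-region sums passed as higher. In pro-B cells over MEF, FOR 49 and FOR 54 came close to the threshold (1.71 ± 0.31 and 1.47 ± 0.27, edgeR quasi-likelihood, adjusted p = 0.0572 and 0.0585). Of all 12 folds in that comparison, 11 were above 0.

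**Figure D2:**
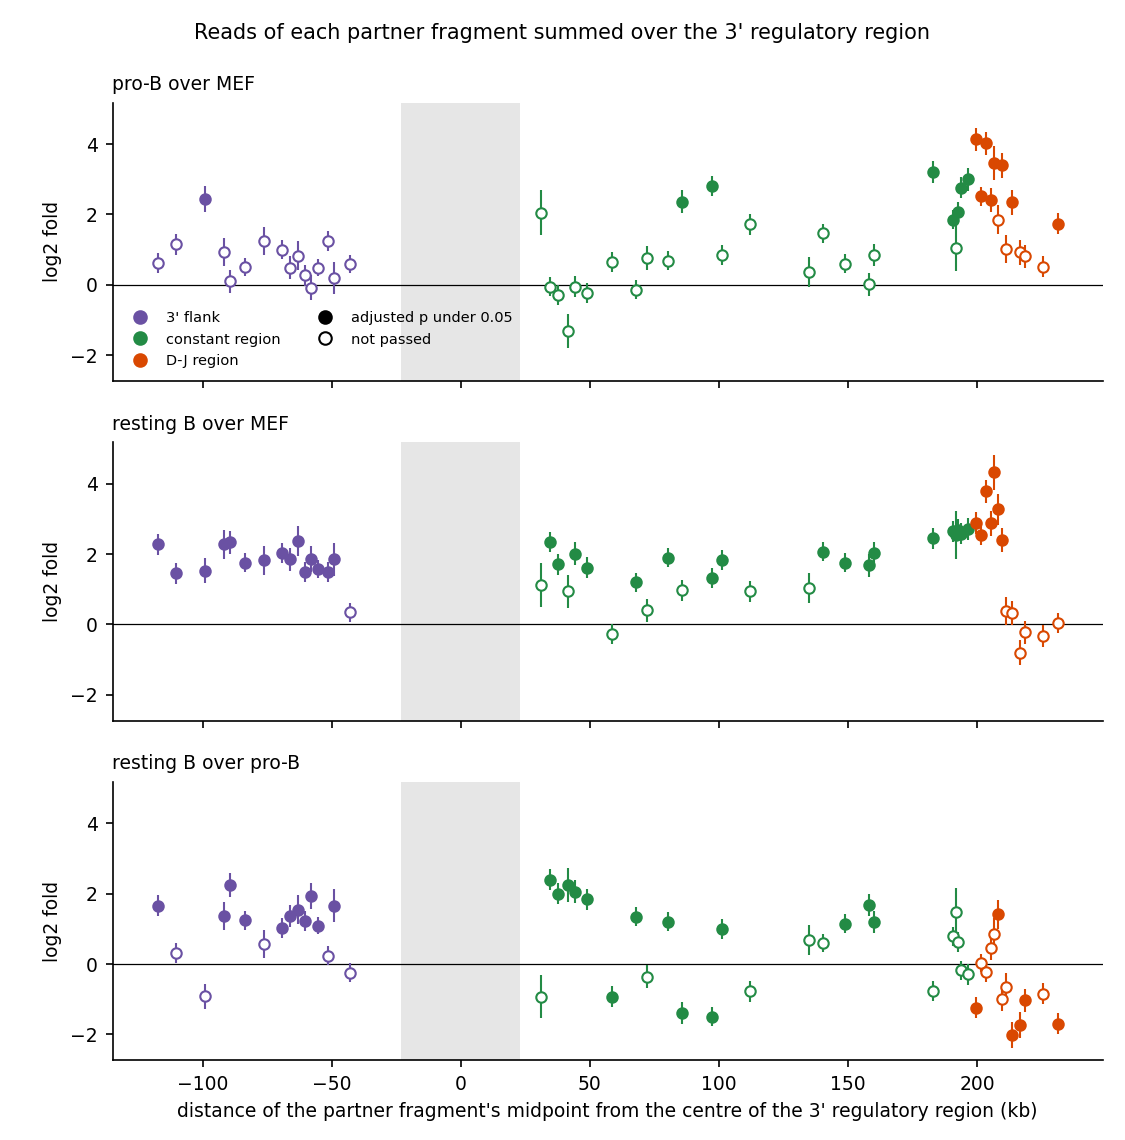
Log2 fold of the reads of each of the 54 partner fragments summed over the 3'RR, in 3 comparisons, against the distance in kb of the fragment from the centre of the 3'RR (grey band). Bars are SE with n = 2 libraries per group, and filled points passed in edgeR's quasi-likelihood test: 16 in pro-B over MEF, 40 in resting B over MEF, and 23 higher and 8 lower in resting B over pro-B.

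Over all partners, 16 of 54 fragments passed as higher and 0 as lower in pro-B cells over MEF, where 1.38% of all fragment-by-region sums passed as higher. They were 8 of the 13 in the D-J region, 7 of the 25 in the constant region and 1 of the 16 in the flank. Without pro-B replicate 1 or 2 the count rose, but the share over all sums was not counted there. Without any 1 of the other 4 libraries none passed. In resting B cells over MEF, 40 passed as higher and 0 as lower, against 19.2% and 12.6% of all sums; the count was 0 without MEF replicate 1 or either resting B library and 18 without MEF replicate 2. The fragments that passed as higher in both comparisons, which share the MEF libraries, numbered 13. In resting B over pro-B cells, 23 passed as higher and 8 as lower, against 18.2% and 17.8% of all sums. That was near the background for the lower ones, and the numbers became 1 and 0 without resting B replicate 1, 0 and 0 without resting B replicate 2, 26 and 14 without pro-B replicate 2, and 7 and 0 with gene desert reads as library size.

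The pair with the most reads between the 3'RR and the constant region, FOR 28 with REV 33, was not a steady measure in pro-B cells. It held 282315 and 52627 reads for pro-B, 18937 and 24843 for MEF, and 51247 and 48785 for resting B. Pro-B replicate 1 alone was high, and the pair made up 55.3% of that library's 3'RR reads with the constant region. The sum over all 100 pairs was 29121 and 15959 CPM for pro-B, 7726 and 6748 CPM for MEF, and 19480 and 20118 CPM for resting B. Its pro-B over MEF fold of 1.64 ± 0.33 passed (edgeR quasi-likelihood, adjusted p = 0.0144). It was 1.10 without that pair, and did not pass without MEF replicate 1 or 2 (1.74 and 1.46; edgeR quasi-likelihood, adjusted p = 0.164 and 0.136). In resting B over pro-B cells the fold of this sum was -0.19 (edgeR quasi-likelihood, adjusted p = 0.621), 0.40 without the pair and 0.65 with each primer pair counted once, where it passed as higher (limma, adjusted p = 0.00193).

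Reads within the 3'RR were 120363 and 144590 CPM for pro-B, 231911 and 91302 CPM for MEF, and 31565 and 31550 CPM for resting B. The low resting B sum was carried by a few pairs. FOR 28 with REV 24, 21.5 kb apart, held 1716046 and 2999334 reads for pro-B, 3460959 and 2024765 for MEF, and 374831 and 315936 for resting B. Both resting B libraries were below all others, and the pair made up 80.9% to 88.1% of the reads within the 3'RR in pro-B cells and MEF and 49.8% and 46.3% in resting B cells. Its own fold of -3.19 ± 0.71 in resting B cells over MEF did not pass (edgeR quasi-likelihood, adjusted p = 0.0756).

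At the outer end, 3 short-range pairs fell in resting B cells against both other cell types. FOR 23 with REV 22, 6.21 kb apart, held 91784 and 57353 reads for pro-B, 17182 and 26425 for MEF, and 1304 and 755 for resting B. FOR 25 with REV 24, 1.86 kb apart, held 11982 and 13888, 10280 and 8942, and 244 and 106 reads in the same order. FOR 23 with REV 24 held 8890 and 6296, 3308 and 2632, and 77 and 43 reads. In each of the 3 the resting B libraries were far below all others, with folds against MEF of -4.46 ± 0.56, -5.94 ± 0.61 and -5.79 ± 0.64 (edgeR quasi-likelihood, adjusted p = 0.0417, 0.0383 and 0.0383) and against pro-B cells of -6.42 ± 0.62, -6.39 ± 0.62 and -7.21 ± 0.68 (adjusted p = 0.0189 for each).

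All 3 pairs hold FOR 23 or REV 24. The reads of these 2 fragments to the gene desert fell too in resting B against pro-B cells. FOR 23 had 123 and 645 such reads for pro-B and 103 and 116 for resting B, and REV 24 had 389 and 723 against 164 and 258, with folds after scaling of -2.45 ± 0.48 and -2.75 ± 0.61 (edgeR quasi-likelihood, adjusted p = 0.0061 and 0.0117). Of all 224 Igh fragments, 6.25% passed as lower and 2.68% as higher in that comparison. Pro-B replicate 1 had the fewest reads between Igh and the gene desert, 122047 against 462793 to 703564 in the other libraries. Its counts thus enter folds against pro-B cells scaled up. MEF had 173 and 115 such reads for FOR 23 and 366 and 197 for REV 24. Against MEF the folds were -1.65 and -1.70 and did not pass (edgeR quasi-likelihood, adjusted p = 0.247 for each). Without FOR 23 and REV 24, an alternative added after the data were seen, the fold within the 3'RR was -0.42 against MEF and 0.13 against pro-B cells, instead of -2.36 ± 0.54 and -2.07 ± 0.53 (edgeR quasi-likelihood, adjusted p = 0.00829 and 0.0228). It also lost the threshold without either resting B library. At the inner end, FOR 28 with REV 27 gave 4153 to 5386 CPM in all 6 libraries, and FOR 31 rose within the 3'RR in resting B cells, from 1471 and 884 CPM in MEF and 1128 and 1682 CPM in pro-B cells to 3194 and 3629 CPM (1.54 ± 0.39 and 1.28 ± 0.39; edgeR quasi-likelihood, adjusted p = 0.0265 and 0.0416).

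**Figure D3:**
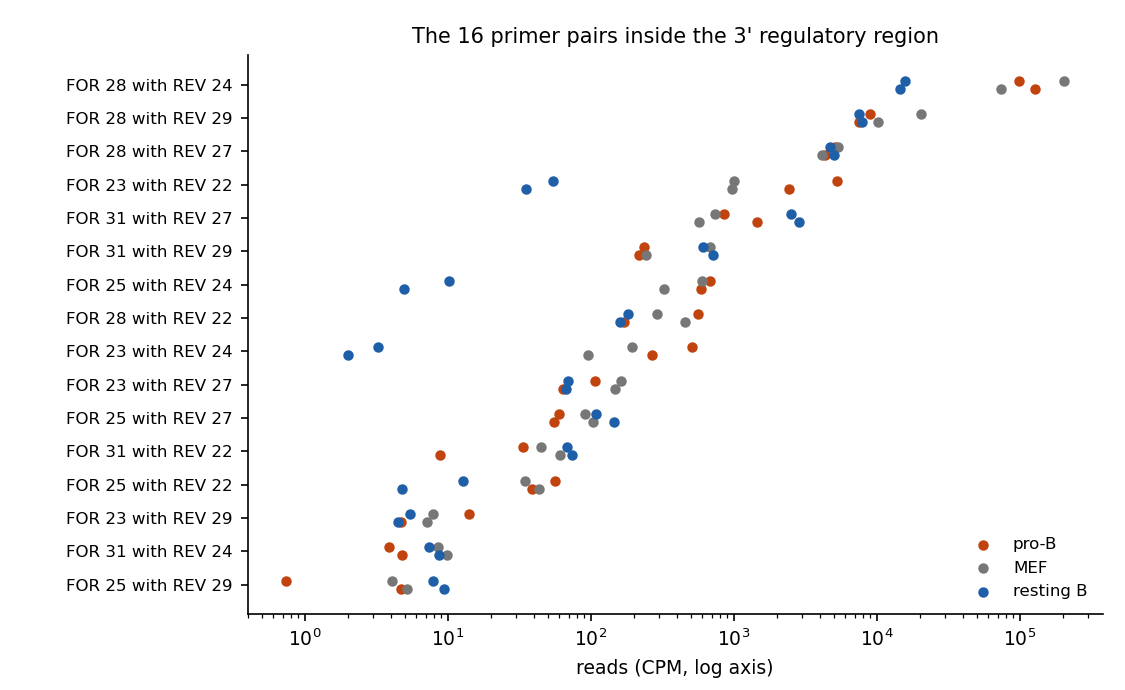
Reads of each of the 16 primer pairs inside the 3'RR, as CPM on a log axis, with 1 point per library. Resting B cells lie far below the other cell types at FOR 23 with REV 22, FOR 25 with REV 24 and FOR 23 with REV 24, and among them at FOR 28 with REV 27.

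With the 3' flank, which lies on the outer side of the 3'RR towards Tmem121, summed reads were 2358 and 1831 CPM for pro-B, 1016 and 1237 CPM for MEF, and 3174 and 3225 CPM for resting B. The 3 groups did not overlap. The fold of 1.51 ± 0.26 in resting B cells over MEF passed (edgeR quasi-likelihood, adjusted p = 0.00219). It did not with gene desert reads as library size (1.92; edgeR quasi-likelihood, adjusted p = 0.0517) or after correction for the recovery of each fragment from its gene desert reads (1.27; adjusted p = 0.0524). The folds of 0.89 ± 0.25 for pro-B over MEF and 0.61 ± 0.25 between the B cell types did not (adjusted p = 0.0581 and 0.0654). Of the 16 flank fragments, 15 rose with the 3'RR in resting B cells over MEF, by 1.46 to 2.37, and the exception was FOR 20, the nearest one, at 0.34 ± 0.27; of all fragment-by-region sums, 19.2% passed as higher in that comparison. Against pro-B cells 11 rose and 0 fell, where 18.2% of all sums passed as higher and 17.8% as lower. Gene desert reads of the flank fragments leaned upward as well between the B cell types. Of those 16 folds 2 were below 0, the median was 0.58 and 2 passed, where 2.68% of all 224 Igh fragments passed as higher. REV 10 was among those that passed (1.64 ± 0.45; edgeR quasi-likelihood, adjusted p = 0.0347), but with the 3'RR its fold of 0.57 did not. The part of these reads in the 11 calls was not tested.

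REV 7 (114367390 to 114368951) gave 16.9 and 21.9 CPM for pro-B, 16.02 and 20.4 CPM for MEF, and 103 and 80.3 CPM for resting B. Pro-B cells and MEF overlapped and resting B cells were above both, by 2.33 ± 0.34 and 2.24 ± 0.34 (edgeR quasi-likelihood, adjusted p = 0.0053 and 0.0049), and its reads to the gene desert also rose against pro-B cells, by 1.81 ± 0.46 (adjusted p = 0.0267). REV 4 (114353716 to 114363543) was the 1 flank fragment to pass in pro-B cells over MEF, at 371 and 197 CPM against 48.5 and 55.8 CPM (2.45 ± 0.36; edgeR quasi-likelihood, adjusted p = 0.0275). In pro-B cells much of that came from FOR 23 with REV 4, which held 4370 and 2884 reads there, 130 and 311 for MEF, and 93 and 53 for resting B. Against pro-B cells, that pair fell by 5.87 on the log2 scale in resting B cells (SE 0.61; edgeR quasi-likelihood, adjusted p = 0.0189) and holds FOR 23, whose gene desert reads fell as given above.

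**Figure D4:**
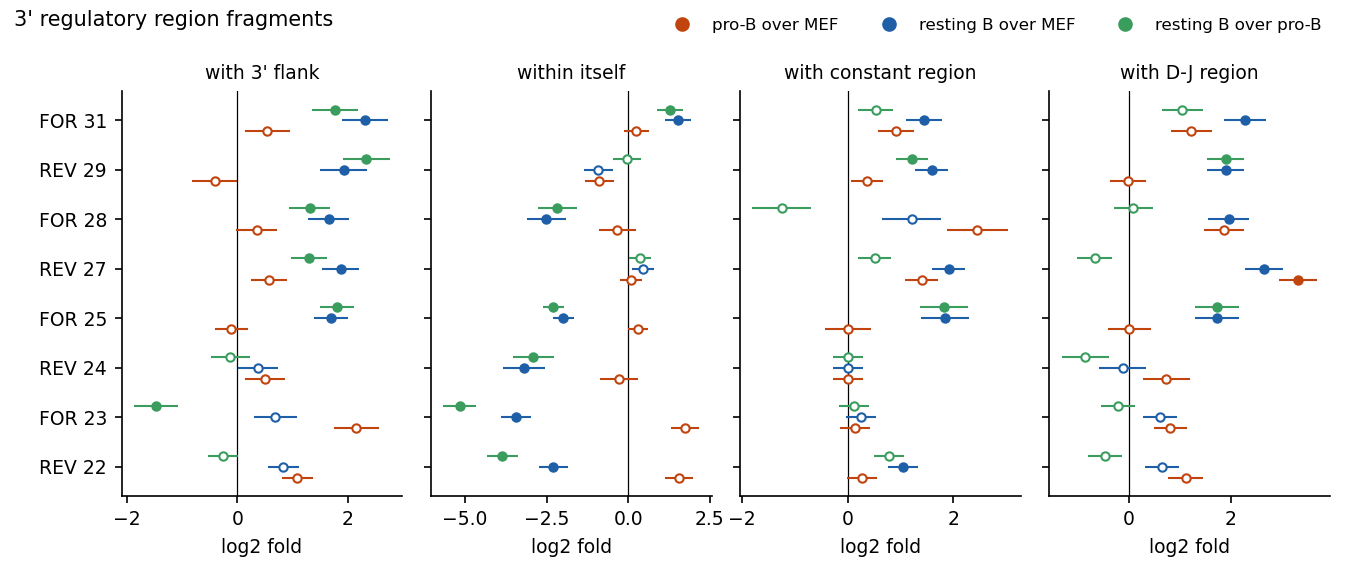
Log2 folds of the 8 fragments of the 3'RR, from the outermost (REV 22) to the one nearest the constant genes (FOR 31), summed over each of the 4 regions in 3 comparisons; bars are SE with n = 2 libraries per group and filled points passed in edgeR's quasi-likelihood test. REV 27 with the D-J region is the single filled point in pro-B over MEF, and within the 3'RR REV 22, FOR 23, REV 24, FOR 25 and FOR 28 lie below 0 as filled points in resting B cells over both other cell types, while FOR 31 lies above 0.

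Over the 8 fragments and 4 regions, 16 of 32 sums passed as higher and 5 as lower in resting B cells over MEF, against 19.2% and 12.6% of all fragment-by-region sums. A primer pair within the 3'RR enters the sum of each of its 2 fragments, so those sums are not independent. All 5 lower sums lay within the 3'RR, where those of FOR 28 and REV 24 share the pair with the most reads. In resting B over pro-B cells the numbers were 10 and 6, against 18.2% and 17.8%. The shares of lower sums were near those over all sums in both comparisons. The first 2 numbers were 0 and 0 without MEF replicate 1 or either resting B library and 3 and 5 without MEF replicate 2. The others were 0 and 1 without resting B replicate 1, 0 and 0 without resting B replicate 2, and 2 and 5 with gene desert reads as library size. With the flank, the 5 fragments from FOR 25 to FOR 31 rose over both other cell types in resting B cells. With gene desert reads as library size all 5 still passed over MEF. Over pro-B cells only REV 29 did (2.43, edgeR quasi-likelihood, adjusted p = 0.0285). FOR 25, REV 27, FOR 28 and FOR 31 then had 1.97, 1.66, 1.70 and 1.86 and did not pass (adjusted p = 0.0644 to 0.0799). FOR 31 gave 105 and 231 CPM for pro-B, 108 and 122 CPM for MEF, and 514 and 634 CPM for resting B (2.32 ± 0.42 over MEF; edgeR quasi-likelihood, adjusted p = 0.00934). FOR 23 was highest in pro-B cells: 601 and 280.4 CPM for pro-B, 89.5 and 108 CPM for MEF, and 167 and 151 CPM for resting B, a fall of 1.47 on the log2 scale against pro-B cells (SE 0.40; edgeR quasi-likelihood, adjusted p = 0.0284). That call did not pass with gene desert reads as library size (-1.02; edgeR quasi-likelihood, adjusted p = 0.364) or when either MEF or either resting B library was left out, and the gene desert reads of FOR 23 fell too, by 2.45. With the constant region, REV 24 gave 40.7 to 48.99 CPM in all 6 libraries, and the groups overlapped.

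Of the 232 pairs, 230 had at least 10 reads in at least 2 libraries and were tested singly; the other 2, FOR 23 and FOR 25 with REV 53, were in the constant region. In pro-B cells over MEF 0 passed in edgeR's quasi-likelihood test, as did 0% of all Igh pairs in each direction; before adjustment 61 of the 230 were under 0.05, against 1094 of all 11940 Igh pairs tested. With DESeq2, 33 members were higher and 2 lower, where 1.34% and 1.13% of all Igh pairs were. The libraries of both groups did not overlap in 94 pairs that were higher and 36 that were lower, against 19.3% and 22.8% of all tested Igh pairs. The median fold was 0.51 over the members and 0.03 over all Igh pairs. By partner the medians were 0.88 with the D-J region, 0.47 with the flank, 0.43 with the constant region and -0.16 within the 3'RR. Without pro-B replicate 1 or 2, member pairs passed in both directions. The share over all Igh pairs was not counted in those fits.

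In resting B cells over MEF, 17 of 230 pairs rose and 3 fell, against 0.369% and 0.385% of all Igh pairs. The 17 were 10 with the constant region and 7 with the D-J region, and the 3 lay within the 3'RR. The median fold was 1.34 over the members and -0.02 over all Igh pairs. No pair with the flank passed, although 61 of 64 had a fold above 0. In resting B over pro-B cells, 21 rose and 14 fell, against 2.74% and 5.16% of all Igh pairs: 12 and 3 with the constant region, 6 and 1 with the flank, 3 and 6 with the D-J region, and 0 and 4 within the 3'RR. The share of falling pairs was near that over all Igh pairs. The rising pairs included FOR 34 with REV 27, which held 1863 and 3431 reads for pro-B, 2840 and 3794 for MEF, and 25305 and 22759 for resting B (3.07 ± 0.39 against pro-B cells; edgeR quasi-likelihood, adjusted p = 0.0195). Leaving out either MEF library or either resting B library brought all 4 counts to 0. Without pro-B replicate 1 or 2 all 4 counts rose, but shares over all Igh pairs were not counted in those fits. With only the 4 libraries compared the counts were 123 and 12 over MEF and 0 and 0 over pro-B cells, again without such shares.

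Set beside other Igh pairs within the same range of separations, resting B cells stood higher in 2 of the regions. The other pairs came from the whole locus, and separations were not matched within the range. The median CPM of the 64 flank pairs was 2.07 and 2.23 times that of 918 other pairs for resting B, 0.838 and 0.961 for pro-B, and 0.504 and 0.631 for MEF. For the constant region these ratios, against 1669 pairs, were 2.83 and 3.03 for resting B, 1.01 and 1.44 for pro-B, and 0.979 and 0.962 for MEF. For the D-J region they were 1.61 and 1.33, 0.921 and 1.44, and 0.811 and 0.713, so that pro-B replicate 1 lay below the other pairs in this range and pro-B replicate 2 above them. These ratios are a description and were not tested. Within the 3'RR the ratio was 0.846 and 1.06 in resting B cells and 2.36 to 3.90 in the other 4 libraries.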

How the data were processed

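Per the file headers, the values the authors deposited are uncorrected counts of valid read pairs (read length 42) for each primer pair. The submitters' processing notes name Novoalign and mm9, with no version of the aligner. Unlisted pairs were set to 0. Valid pairs were 83.5% to 92.3% of raw reads. Reads carry no molecular identifiers, so a limit from a count of 0 covers counting error only. p-values measure the spread between 2 biological replicates per group, estimated jointly over all 3 groups and shared in part across features. A p-value for 2 groups thus also rests on the libraries of the remaining group, except where only the 4 libraries compared were used.

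The members and lists were chosen with earlier results of these data known, and the position stretches after seeing values. Igh pairs that reached 10 reads in 2 or more libraries entered edgeR 4.0.16 (R 4.3.3; TMM; quasi-likelihood; all 6 libraries; cell type as the only term; Benjamini-Hochberg over all Igh pairs, threshold 0.05). The same fit was made on sums over the 55 region pairs, over each fragment with each of 10 regions, and over each fragment with the gene desert. SE was taken as log2 fold over the square root of F. The procedure was tested on simulated data. Named were the 3 pairs with the highest mean CPM per region pair; up to 5 member pairs per direction and comparison, in order of p, whose libraries did not overlap, with no fragment used again; all 8 fragments of the 3'RR; and up to 5 partner fragments per direction. FOR 71, REV 24 with the constant region and some fragments of the stretches were named after their values were seen. Alternatives used DESeq2 1.42.0 and limma 3.58.1.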

Additional observations from a re-analysis of the deposited data

How the results depend on the processing

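The summed D-J fold of resting B over MEF (2.21) passed under each alternative run, but its size fell to 1.73 under the recovery correction and 0.91 with each primer pair counted once; without 1 library it ran from 2.06 to 2.36. Where a result changed, the cause was not tested. Region sums are given as log2 folds. With gene desert reads as library size, pro-B over MEF became 0.15 within the 3'RR (turned) and 2.44 with D-J (no longer passed), resting B over MEF 1.92 with the flank (no longer passed), and resting B over pro-B 0.22 with the constant region and 0.25 with D-J (both turned); with total Igh reads the last 2 were 0.14 and 0.21. The distance correction gave 1.21 with the flank (passed) and 0.10 within the 3'RR for pro-B over MEF. The recovery correction from desert reads gave 1.27 (flank) and -0.10 (within) for resting B over MEF, neither of which passed, and 0.013 (within) and 0.046 (constant) over pro-B, both turned. Without the pair with the most reads, the values were 0.88 (flank, pro-B over MEF, passed), -0.52 (within, over MEF), and 0.79 (flank, passed), -0.27 (within) and 0.40 (constant) over pro-B. With separations of at least 20 kb they were 0.89 (flank, pro-B over MEF, passed) and 0.28 (constant, resting B over pro-B). DESeq2 gave 0.93 and 0.64 with the flank (pro-B over MEF, resting B over pro-B; both passed). With each primer pair counted once, pro-B over MEF was 0.23 (flank), 0.46 (constant) and 0.90 (D-J), and resting B over pro-B was 1.24 (flank), 0.65 (constant) and 0.0063 (D-J). Without FOR 23 and REV 24, an alternative chosen after seeing the data, resting B cells had -0.42 within the 3'RR over MEF, and 0.13 within and 0.90 with the flank over pro-B.

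Without 1 library, pro-B over MEF ran from 0.70 to 1.07 (flank), -0.86 to 0.53 (within; turned without MEF replicate 1), 1.14 to 2.01 (constant) and 2.03 to 2.53 (D-J; not passed without MEF replicate 2). Resting B over MEF ran from -2.88 to -1.54 (within) and 1.36 to 1.55 (constant; not passed without either MEF library). Resting B over pro-B ran from 0.43 to 0.79 (flank), -2.21 to -1.94 (within), -0.57 to 0.30 (constant; turned without pro-B replicate 1) and -0.32 to 0.17 (D-J; turned without pro-B replicate 1 or resting B replicate 1).

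Counts are given as higher and lower, in the order pro-B over MEF, resting B over MEF, resting B over pro-B. Member pairs numbered 0 and 0, 17 and 3, 21 and 14. They were 33 and 2, 85 and 7, 64 and 22 with DESeq2; 0 and 0, 23 and 3, 27 and 17 with at least 50 reads; 6 and 0, 24 and 4, 16 and 17 with the distance correction; 8 and 0, 20 and 4, 21 and 7 with gene desert reads; 3 and 0, 21 and 4, 24 and 7 with total Igh reads; 0 and 0, 123 and 12, 0 and 0 with only the 4 libraries compared. With DESeq2, 1.34% and 1.13%, 6.25% and 7.39%, and 10.9% and 13.4% of all Igh pairs passed, in the same order. For the other alternatives, and with 1 library left out, shares over all pairs or sums were not counted. Under the replicate block the member counts were 0 and 0, 0 and 2, 5 and 4. Without 1 library they ran from 0 to 55 and 0 to 24, 0 to 125 and 0 to 15, 0 to 85 and 0 to 33. Sums of 3'RR fragments (1 and 0, 16 and 5, 10 and 6) were 4 and 0, 17 and 4, 2 and 5 with gene desert reads, and ran from 0 to 10 and 0 to 2, 0 to 20 and 0 to 5, 0 to 12 and 0 to 8 without 1 library. Sums of partner fragments (16 and 0, 40 and 0, 23 and 8) were 11 and 0, 34 and 0, 7 and 0 with gene desert reads, and ran from 0 to 29 and 0 to 1, 0 to 45 and 0 to 1, 0 to 26 and 0 to 14 without 1 library. Replicate numbers did not pair the samples (correlations of same-numbered deviations -0.03, 0.09 and 0.01). With the replicate block the region sums kept their side of the threshold.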
